A study of Mus musculus with 26 samples.

Results

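Interferon-induced GTPases were followed in mouse myoblasts depleted of Mettl3 and in regenerating mouse muscle. The set held 9 genes, namely the guanylate-binding proteins Gbp2, Gbp3 and Gbp7, the immunity-related GTPases Iigp1, Irgm1, Irgm2 and Igtp, and the Mx proteins Mx1 and Mx2. Their rows were taken by gene symbol from each deposited expression table, and 9 of 9 were found among the 55487 genes of the cell table and among the 53465 genes of the muscle table. All 9 passed the filter on low values in each table (at least 0.5 FPKM in at least 2 libraries), as did 13824 genes of the cell table and 16753 of the muscle table in all, but in cells Mx1 and Mx2 reached it only through the knockdown libraries of day 3, where they are high. FPKM divides the fragments of a gene by its length and by the size of the library. The genes were chosen by their knockdown and injury-day differences in these same libraries, so their differences between knockdown and control and between injury days are given as descriptions, without a test.

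The cells were C2C12, a mouse myoblast line that fuses into myotubes when serum is withdrawn. Control cells (CTRL in the labels) and knockdown cells (Cas9M3) were sequenced in growth medium (GM, day 0) and 3 days into differentiation (DM3), and each of the 4 groups had 2 libraries. The knockdown lines were stable lines made with a lentivirus that carries guide RNAs for the Mettl3 promoter and dCas9-KRAB, a cutting-dead Cas9 fused to a transcriptional repressor. The design text of the series calls them knockout derivatives, and what the control cells carry is not given in the sources used here. The muscle was tibialis anterior of C57BL/6J mice on days 0, 1, 3, 5 and 10 of a course of injury with cardiotoxin (CTX), a cobra toxin that lyses the fibres of the injected muscle. Each day had 2 libraries, which makes 10. The study calls its baseline pre-injury and names saline as the control injection, and whether the day 0 muscle was injected is not stated. The methods speak of independent biological samples in general, but the labels do not tie these libraries to separate cultures or animals, so p-values measure the spread between these libraries only, which may be technical, and the smallest two-sided p that an exact permutation test of 2 against 2 libraries can give is 0.333.

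Guanylate-binding proteins and immunity-related GTPases are large GTP-hydrolysing proteins that coat or disrupt the vacuoles in which intracellular pathogens live, and Mx proteins are dynamin-like GTPases that trap viral components. In most resting cells their genes are quiet. Interferon binding at the cell surface activates JAK kinases and, through them, transcription factors that switch the genes on through interferon-stimulated response elements and gamma-activated sites in their promoters. Irgm1, Irgm2 and Igtp (also called Irgm3) form the regulatory branch of the immunity-related GTPases and hold effector members such as Iigp1 in check on the cell's own membranes. Common laboratory mouse strains carry defective alleles of Mx1 and Mx2, and the deposited annotation types Mx2 as a polymorphic pseudogene in each table and Mx1 so in the cell table alone.

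By the steps between low values, the cell libraries held 14260000 to 29540000 reads on genes and the muscle libraries 14120000 to 18740000, and a read on a gene of 1 kb was worth 0.0313 to 0.103 FPKM and 0.0494 to 0.0819 FPKM, respectively. Mettl3, the targeted methyltransferase, measured 4.68 to 5.65 FPKM in the 4 control libraries and 0.0805 to 0.331 FPKM in the 4 knockdown libraries. The summed level of 6 myoblast and myogenic markers was 26.2 to 51.4 FPKM in control GM, 373 to 401 FPKM in control DM3 and 34.6 to 35.9 FPKM in knockdown DM3, and the sum of 6 muscle fibre markers was 639 to 641 FPKM in control DM3 and 14.7 to 19.6 FPKM in knockdown DM3. Mymk, a fusion protein of differentiating myoblasts, measured 199 and 180 FPKM in control DM3 and 4.58 and 3.47 FPKM in knockdown DM3. By these markers the knockdown libraries labelled DM3 did not look differentiated, which goes against their stage label, while Mettl3 was at 0.148 and 0.0805 FPKM in them. Each knockdown DM3 value given here rests on these 2 libraries, and the part of the difference in differentiation in it was not tested. In GM the libraries of each line stood apart in the same direction, with fibre marker sums of 148 FPKM in replicate 1 and 22.6 FPKM in replicate 2 of the control and of 99.8 and 5.87 FPKM in the knockdown.

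In the GRCm38 build, Gbp7, Gbp3 and Gbp2 lie on the plus strand of chromosome 3 (142530342 to 142550149, 142560026 to 142573209 and 142620602 to 142638008). Igtp (58199556 to 58207591) and Irgm2 (58199618 to 58222782) overlap on the plus strand of chromosome 11, and Irgm1 lies on the minus strand of the same chromosome (48861968 to 48871683). Mx1 (97447035 to 97462907, minus strand) and Mx2 (97535308 to 97560900, plus strand) lie on chromosome 16. Igtp and Irgm2 share 162 exon bases on the same strand, Gbp7 shares 637 exon bases with the processed pseudogene Gm43802, and Gbp2 shares 24 with the microRNA gene Mir6381 on the opposite strand. How the authors' counting split reads there is not stated, so the values of these genes carry that uncertainty.

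RefSeq promoter windows (GRCm38.p6, 250 bases before to 50 bases after the start site) were at hand for 6 of the 9 genes, Gbp2, Gbp3, Gbp7, Irgm1, Irgm2 and Igtp. The core of an interferon-stimulated response element, searched on either strand as GAAA, 2 bases of any kind and GAAA, was found in 6 of 6 genes and in 6 of their 7 windows, against 3.44% of all 32851 promoter windows. The pattern of a gamma-activated site, TTCNNNGAA, which reads the same on either strand, was found in 3 of the 6 genes, Gbp7, Irgm2 and Igtp, against 8.30% of all windows. These 30-base stretches are shown because each places the response element close before the start site that RefSeq gives. Its first base lay at −64 (Irgm2) to −30 (Irgm1). The match is in capitals, which in the Gbp genes is the element of the opposite strand. In Gbp2, Irgm1 and Irgm2 the match lies inside the gene span given above, because the RefSeq start site used differs from the start of that span. Gbp3 and Irgm1 each held a second match, at −39 and −24, that overlapped the match shown.
Gbp7, chr3:142530273-142530302, plus strand: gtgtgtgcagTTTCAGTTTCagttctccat
Gbp3, chr3:142559989-142560018, plus strand: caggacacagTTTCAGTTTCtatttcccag
Gbp2, chr3:142620594-142620623, plus strand: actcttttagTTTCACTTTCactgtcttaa
Irgm1, chr11:48871431-48871460, minus strand: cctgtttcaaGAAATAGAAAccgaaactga
Igtp, chr11:58199512-58199541, plus strand: tctaggaactGAAACTGAAAgctgttcggg
Irgm2, chr11:58214903-58214932, plus strand: tccaggaactGAAACTGAAAgctgttcggg
Gbp7 and Gbp3 held the same letters in capitals, as did Igtp and Irgm2. In Igtp and Irgm2 the gamma-activated pattern began at −45 and −75, just upstream of the response element and sharing no base with it, and it is in capitals here.
Igtp, chr11:58199501-58199530, plus strand: aactagccatTTCTAGGAActgaaactgaa
Irgm2, chr11:58214892-58214921, plus strand: aactagccatTTCCAGGAActgaaactgaa
A match is a description of letters and not evidence of a bound site. Among the other genes of the Gbp and Irg families with a window, 7 of 11 held the response element and 5 of 11 the gamma-activated pattern.

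Each of the 9 GTPases had its highest levels in knockdown cells on DM3, while their control levels ranged from 0 (Mx1) to 9.96 FPKM (Irgm1). Gbp2, a guanylate-binding protein, measured 3.36 and 5.31 FPKM in control GM, 2.58 and 2.98 FPKM in control DM3, 2.72 and 3.16 FPKM in knockdown GM, and 9.25 and 9.31 FPKM in knockdown DM3. The knockdown libraries were below the control libraries in GM and above them on DM3, without overlap at either stage. The difference of the mean log2(FPKM + 0.1), knockdown minus control, was −0.51 ± 0.26 (SE of the fit) in GM and 1.71 ± 0.26 on DM3. Gbp3 measured 0.347 and 0.666 FPKM in control GM, 0.681 and 0.865 FPKM in control DM3, 0.670 and 1.68 FPKM in knockdown GM, and 10.4 and 9.59 FPKM in knockdown DM3. Its mean on DM3 was 13.0 times that of the control cells, the steepest difference of the 3 guanylate-binding proteins. Gbp7 measured 0.543 and 0.277 FPKM in control GM, 0.377 and 0.385 FPKM in control DM3, 0.993 and 1.07 FPKM in knockdown GM, and 4.45 and 2.91 FPKM in knockdown DM3. Each knockdown group of Gbp7 lay above its control, by 1.20 ± 0.38 on the log2 scale in GM and by 2.94 ± 0.38 on DM3.

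Among the immunity-related GTPases, Irgm1, a regulator that protects cellular membranes from the effector members, had the highest level of the 9 genes in each group of cells. It measured 6.37 and 9.96 FPKM in control GM, 8.89 and 8.50 FPKM in control DM3, 6.53 and 21.9 FPKM in knockdown GM, and 54.7 and 52.9 FPKM in knockdown DM3. The GM groups overlapped and the DM3 groups did not, with a log2 difference of 0.58 ± 0.54 in GM and 2.62 ± 0.54 on DM3. Without knockdown GM replicate 2 the GM difference was −0.28. Irgm2, the second regulator, measured 1.42 and 1.46 FPKM in control GM, 0.830 and 0.700 FPKM in control DM3, 2.22 and 8.29 FPKM in knockdown GM, and 20.1 and 17.6 FPKM in knockdown DM3. On DM3 its mean was 24.6 times the control mean, a log2 difference of 4.45 ± 0.56. Igtp, the third regulator, measured 1.59 and 2.10 FPKM in control GM, 1.14 and 1.25 FPKM in control DM3, 2.24 and 6.68 FPKM in knockdown GM, and 15.4 and 16.7 FPKM in knockdown DM3. Knockdown libraries of Irgm2 and Igtp lay above controls at either stage, and knockdown replicate 2 was the higher of the GM libraries for each of the 3 regulators. Iigp1, an effector that accumulates on pathogen vacuoles, measured 0.519 and 0.445 FPKM in control GM, 0.382 and 0.413 FPKM in control DM3, 0.528 and 1.06 FPKM in knockdown GM, and 5.88 and 4.35 FPKM in knockdown DM3. Its knockdown replicate 1 in GM was thus close to the control libraries, while its DM3 mean was 12.9 times that of the control.

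Mx1 was listed at 0 in the 4 control libraries, at 0.0251 and 0.216 FPKM in knockdown GM and at 0.578 and 0.540 FPKM in knockdown DM3. Mx2 measured 0.00870 and 0.0287 FPKM in control GM, 0 and 0.0166 FPKM in control DM3, 0.0964 and 0.859 FPKM in knockdown GM, and 4.65 and 4.37 FPKM in knockdown DM3. The highest control value of Mx2 was worth a single read, so no ratio is given for either Mx gene against control. Their log2 differences depended on the added 0.1 FPKM for the same reason, and were 5.41 ± 0.77 for Mx2 and 2.72 ± 0.71 for Mx1 on DM3.

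**Figure D1:**
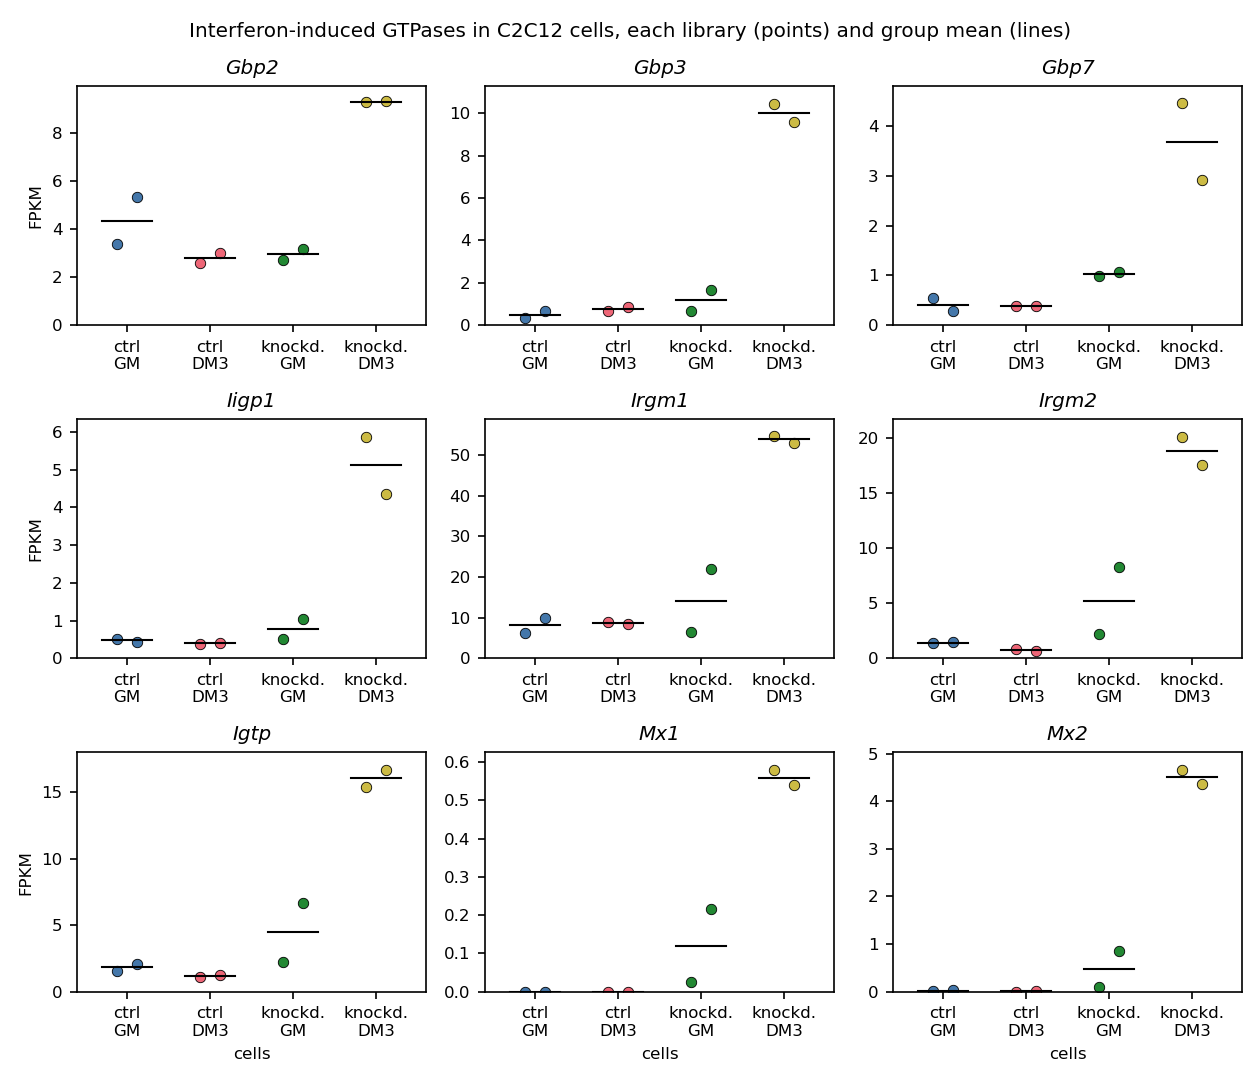
FPKM of each of the 9 genes in the 8 C2C12 libraries (points, 2 per group, replicate 1 left and replicate 2 right) with the group mean (line), on linear axes from 0. The knockdown DM3 libraries are the highest for each gene, and the knockdown GM libraries lie apart from each other for Irgm1 (6.53 and 21.9 FPKM), Irgm2 (2.22 and 8.29 FPKM) and Igtp (2.24 and 6.68 FPKM).

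In GM, 7 of the 9 genes were higher and 1, Gbp2, was lower in knockdown than in control without overlap between libraries, where 15.6% and 13.8% of all tested genes were so placed. The median log2 difference of the 9 was 1.00 (−0.51 for Gbp2 to 1.88 for Mx2), beside a median of −0.01 over all tested genes. It was 1.61 without knockdown GM replicate 1 and 0.32 without knockdown GM replicate 2, the library with the lower myogenic markers. On DM3, 9 of 9 were higher without overlap, where 29.3% of all tested genes were so placed, and the median log2 difference was 3.37 (1.71 for Gbp2 to 5.41 for Mx2) beside −0.05 over all tested genes. Leaving out Mx1 and Mx2 gave the same median over 7 genes. These counts and medians describe genes chosen by these differences and were not tested.

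The change from GM to DM3 within each line was tested for the 9 genes. In control cells, which raise the myogenic markers between these stages, 0 of 9 passed (limma, adjusted p of 0.290 or more). Of the 9, 0 had an unadjusted p under 0.05. Over all tested genes 1.14% passed, so 0 of 9 is near that share and is not read as a result about these genes. Mx1 and Mx2 were at 0 or a single read in each control library. The test could not show a change for them, so they add nothing to that count. Their log2 differences, DM3 minus GM, ran from −0.84 for Irgm2 to 0.57 for Gbp3 with a median of −0.13, and Gbp2, Iigp1, Irgm2 and Igtp were lower and Gbp3 higher on DM3 without overlap between libraries, as were 22.4% and 24.8% of all tested genes. Without control GM replicate 1 the fall of Gbp2 by 0.91 on the log2 scale passed the test. In knockdown cells 9 of 9 were higher on DM3 without overlap, as were 23.9% of all tested genes, with log2 differences of 1.63 (Gbp2) to 3.41 (Mx2) and a median of 2.10. Still, 0 of the 9 passed the test (limma), with adjusted p of 0.0719 for Iigp1, 0.0758 for Gbp3 and 0.0814 for Gbp2 as the smallest and 0.393 for Mx1 as the largest, although 9 of 9 had an unadjusted p under 0.05. In that contrast 0.0289% of all tested genes passed. The groups of this contrast, and those of the control contrast above, also enter the knockdown contrasts by which the genes were chosen. The p-values of each line and the passes with a library left out are thus not independent of the choice, and no support is drawn from them. Mx1 and Mx2, moreover, reached the filter only through the knockdown DM3 libraries. Gbp2, Gbp3, Gbp7 and Iigp1 passed without control GM replicate 1, and likewise without control GM replicate 2.

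The knockdown difference was larger on DM3 than in GM for 9 of 9 genes, by 1.73 (Mx1) to 3.54 (Mx2) on the log2 scale. Those values use the libraries behind the choice of the genes and were not tested. Gbp2 alone was below its control in GM and above it on DM3.

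**Figure D2:**
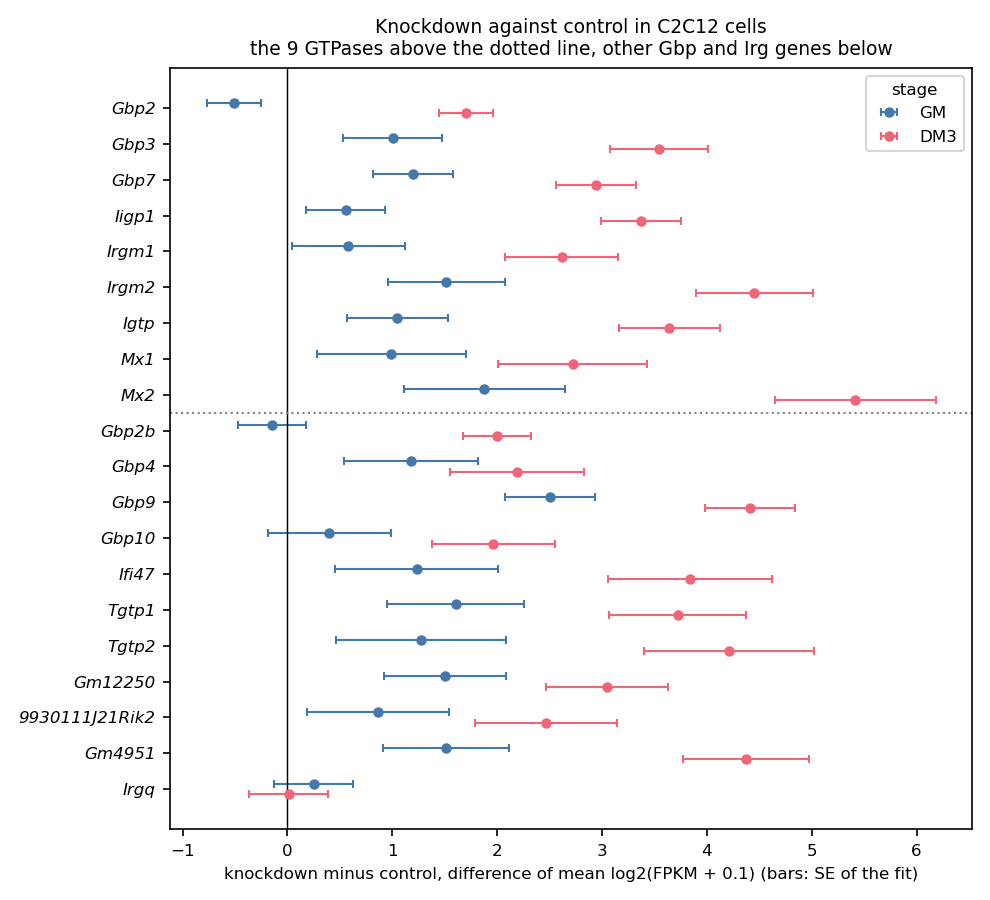
Difference of mean log2(FPKM + 0.1), knockdown minus control, in GM (blue) and on DM3 (red), for the 9 genes and for the 11 other tested genes of the Gbp and Irg families. Points are differences and bars the SE of the fit. On DM3 each plotted gene but Irgq (0.01) lies at 1.71 or above, 7 of the 11 other family genes having passed the filter only with the help of those libraries, while GM values run from −0.51 (Gbp2) to 2.51 (Gbp9).

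Genes of the same families outside the set were tested in the same contrasts. Of 22 listed, 11 were tested in cells. This list and the other gene lists tested below, in cells and in muscle, were chosen with earlier results of these data known. The p-values of their genes are thus not taken as independent of that choice. In GM 0 of 11 passed (limma, 4 at an unadjusted p under 0.05), and the fit called 0% of all tested genes (threshold, an adjusted p of 0.05). Over all 22 genes, whether or not they passed the filter, 19 were above 0 in GM with a median log2 difference of 0.65, and 20 were above 0 on DM3 with a median of 2.01. On DM3 the fit called 3 of 11 higher with the knockdown, beside 1.29% of all tested genes. Of the 11, 7 (Gbp4, Gbp10, Tgtp1, Tgtp2, Gm12250, Gm4951 and 9930111J21Rik2) reached the filter only with the help of the knockdown DM3 libraries, so a higher level there was a condition of their being tested. Among the other 4, Gbp2b and Gbp9 rose and Ifi47 and Irgq did not pass. Gbp9 reached the filter through knockdown libraries alone, being at or below 0.268 FPKM in each control library. A higher level in knockdown cells was thus a condition of its being tested, and its p-value carries that limit. Gbp9, a guanylate-binding protein, rose by 4.41 ± 0.43 on the log2 scale (adjusted p = 0.0187), from 0.268 and 0.151 FPKM in control to 7.07 and 5.75 FPKM in knockdown DM3. Gbp2b rose by 2.00 ± 0.32 (adjusted p = 0.0419), from 1.33 and 1.68 FPKM to 6.53 and 6.08 FPKM. The third call, the immunity-related GTPase gene Gm4951, measured 0 and 0.0227 FPKM in control and 2.40 and 2.01 FPKM in knockdown DM3 and at most 0.391 FPKM in the other 6 libraries, and no test is given for it. With the replicate number as a block 5 of 11 passed, Ifi47 and Tgtp1 being added. The count was 7 without either control GM library, 5 without either knockdown GM library and 0 without any 1 of the 4 DM3 libraries. Irgq, a family member that is thought not to respond to interferon, measured 7.33 and 5.86 FPKM in control and 6.52 and 6.71 FPKM in knockdown DM3, a difference of 0.01 ± 0.38.

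The interferon pathway upstream of these genes was measured in part. Of 10 interferon genes listed, 0 were tested in either table because none reached the filter, and their highest value over all cell libraries was 0.108 FPKM (Ifne). Of 21 tested genes for interferon receptors and signalling, the fit called 3 higher with the knockdown on DM3 and 0 lower, and over all 24 listed the median log2 difference was 0.42 with 19 above 0. Usp18, an interferon-induced protease that removes ISG15 and damps signalling, measured 0.0523 and 0.0861 FPKM in control and 11.7 and 12.8 FPKM in knockdown DM3, but it reached the filter only with the help of the latter libraries, so no test is given for it. Irf9, a DNA-binding subunit of the factor that acts at interferon-stimulated response elements, rose from 2.38 and 2.50 FPKM to 14.8 and 17.4 FPKM (2.67 ± 0.32, adjusted p = 0.0237). Ifnar2, a chain of the type I interferon receptor, was higher with the knockdown by 0.99 ± 0.16 (adjusted p = 0.0419). Irf7, a regulator that interferon induces, did not pass, with 4.22 ± 0.90 (adjusted p = 0.0779). In GM 0 of the 21 passed (4 at an unadjusted p under 0.05). On DM3 the count was 5 with the replicate block and 0 to 5 with each library left out, with 0 without control DM3 replicate 1 and 5 without control GM replicate 1.

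Of 32 tested interferon-induced effectors outside the GTPase families, the fit called 7 higher with the knockdown on DM3, and over all 36 listed, whether or not they passed the filter, 36 were above 0 with a median log2 difference of 2.26. Of the 32, 27 reached the filter without the knockdown DM3 libraries, and 6 of these were called. The 5 called genes with the largest difference were Ifit1, which binds foreign RNA caps (6.66 ± 1.09, adjusted p = 0.0430), Oas1a, which starts RNA decay and reached the filter only with those libraries (5.86, no test given), Rtp4 (4.34 ± 0.40, adjusted p = 0.0187), Bst2, which tethers budding virus (4.20 ± 0.72, adjusted p = 0.0493), and Dhx58, a regulator of RNA sensing (4.07 ± 0.47, adjusted p = 0.0227). Ifit1 measured 0.645 and 1.36 FPKM in control and 112 and 98.4 FPKM in knockdown DM3. The count was 12 with the replicate block, 18 without control GM replicate 1 and 0 without control DM3 replicate 1. In GM 0 of 32 passed (7 at an unadjusted p under 0.05).

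Among lists outside the interferon response, the other dynamin-superfamily GTPases and the autophagy genes had medians near 0. The muscle fibre and myogenic marker lists had medians of −5.14 and −2.80. Of 13 tested dynamin-superfamily GTPases that serve membrane fission and fusion, such as Dnm2, Mfn2 and Opa1, 0 passed on DM3 (3 at an unadjusted p under 0.05), with a median log2 difference of 0.07. Of 12 tested genes for conjugation of autophagy proteins to membranes, which the immunity-related GTPases use for loading, 0 passed (1 at an unadjusted p under 0.05), with a median of 0.14. In the same contrast Ckm, the muscle creatine kinase, fell by 5.14 on the log2 scale (adjusted p = 0.0215) and Myod1, a myogenic regulator, by 2.80 (adjusted p = 0.0337). Of the 10 macrophage and monocyte markers, Adgre1, Itgam, C1qa and C1qb were at 0 in the 8 cell libraries. The marker sum was 31.8 to 33.9 FPKM in control GM and 9.78 to 12.1 FPKM in control DM3. In knockdown cells it was 25.3 to 34.7 FPKM in GM and 27.5 to 41.1 FPKM on DM3. Most of each sum was Cd14 and Ly6c2. Cd14 was higher with the knockdown on DM3 (limma, 1.17 ± 0.18, adjusted p = 0.0367). Its means in GM and on DM3 were 15.6 and 6.53 FPKM in control cells and 11.8 and 14.9 FPKM in knockdown cells. Sums of T cell and NK cell, neutrophil and endothelial markers were at most 2.84, 0.363 and 0.222 FPKM in the cell libraries. The part of these markers in the result was not tested.

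**Figure D3:**
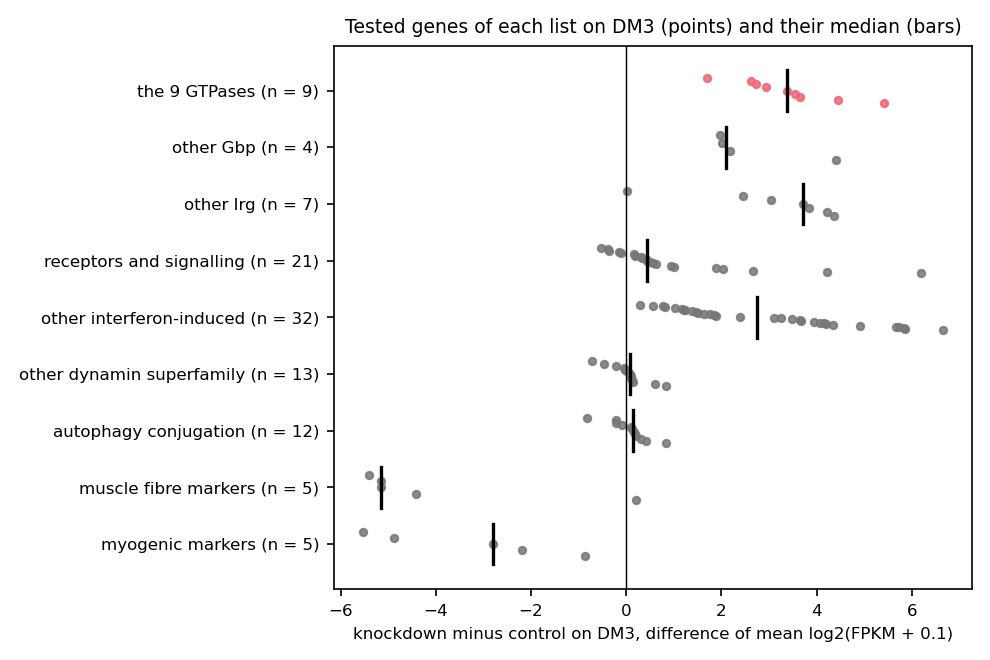
Difference of mean log2(FPKM + 0.1) on DM3, knockdown minus control, for the tested genes of 9 lists (points), with the median of each list (bar) and its number of tested genes. Genes that reached the filter only through the knockdown DM3 libraries are included, and the medians are 3.37 for the 9 GTPases, 2.75 for the other interferon-induced effectors, 0.07 for the other dynamin-superfamily GTPases and −5.14 for the muscle fibre markers.

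In muscle the GTPases were present on day 0, near that level on day 1 with the exception of Mx1, higher on days 3 and 5, and back near the day 0 level on day 10. Gbp2 measured 3.83 and 3.90 FPKM on day 0, 3.05 and 3.51 FPKM on day 1, 11.5 and 10.9 FPKM on day 3, 6.83 and 10.7 FPKM by day 5, and 1.69 and 4.20 FPKM by day 10. Day 3 was the highest day, separate from day 5, which was separate from day 0. Gbp3 measured 2.56 and 2.94 FPKM on day 0, 1.80 and 3.15 FPKM on day 1, 7.06 and 5.59 FPKM on day 3, 4.57 and 11.2 FPKM by day 5, and 1.88 and 3.79 FPKM by day 10. Days 3 and 5 overlapped with each other and were separate from the other days. Gbp7 measured 1.34 and 0.974 FPKM on day 0, 0.796 and 1.55 FPKM on day 1, 2.82 and 2.07 FPKM on day 3, 1.84 and 2.75 FPKM by day 5, and 0.989 and 1.24 FPKM by day 10, with the same placing of the days.

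Igtp was the immunity-related GTPase with the clearest course. It measured 5.72 and 6.52 FPKM on day 0, 6.80 and 5.35 FPKM on day 1, 15.7 and 20.1 FPKM on day 3, 9.89 and 12.3 FPKM by day 5, and 6.62 and 5.52 FPKM by day 10. Day 3 lay above day 5 and day 5 above the other days, which overlapped. Its log2 difference to day 0 was 1.53 ± 0.20 on day 3. Irgm2 measured 7.16 and 8.99 FPKM on day 0, 7.82 and 6.95 FPKM on day 1, 10.3 and 13.3 FPKM on day 3, 7.88 and 12.2 FPKM by day 5, and 8.70 and 7.44 FPKM by day 10. Although it shares exon bases with Igtp, its log2 difference on day 3 was only 0.54 ± 0.24, and day 5 overlapped with days 0, 3 and 10.

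Irgm1 measured 3.26 and 4.42 FPKM on day 0, 3.59 and 2.99 FPKM on day 1, 5.45 and 5.16 FPKM on day 3, 4.48 and 7.03 FPKM by day 5, and 3.22 and 3.91 FPKM by day 10. Its range was narrow here, with log2 differences to day 0 of 0.47 ± 0.25 on day 3 and 0.55 ± 0.25 on day 5. Iigp1 measured 2.96 and 4.32 FPKM on day 0, 3.47 and 2.78 FPKM on day 1, 7.37 and 4.26 FPKM on day 3, 6.61 and 12.6 FPKM by day 5, and 2.96 and 5.34 FPKM by day 10. Its day 3 libraries overlapped with day 0, the exception among the 9 genes, and it was separate from day 0 on day 5 alone.

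Mx1 had the steepest course of the set. It measured 0.0881 and 0.144 FPKM on day 0, 0.785 and 1.00 FPKM on day 1, 3.75 and 3.39 FPKM on day 3, 1.04 and 4.14 FPKM by day 5, and 0.112 and 0.227 FPKM by day 10. It was the only 1 of the 9 with day 1 libraries above those of day 0, and its means on days 1, 3 and 5 were 7.71, 30.8 and 22.4 times the day 0 mean. Mx2 measured 0.267 and 0.539 FPKM on day 0, 0.367 and 0.442 FPKM on day 1, 1.36 and 1.48 FPKM on day 3, 0.798 and 1.98 FPKM by day 5, and 0.249 and 0.376 FPKM by day 10. Days 3 and 5 of Mx2 overlapped with each other and lay above the other days, with a mean of 3.52 times that of day 0 on day 3.

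**Figure D4:**
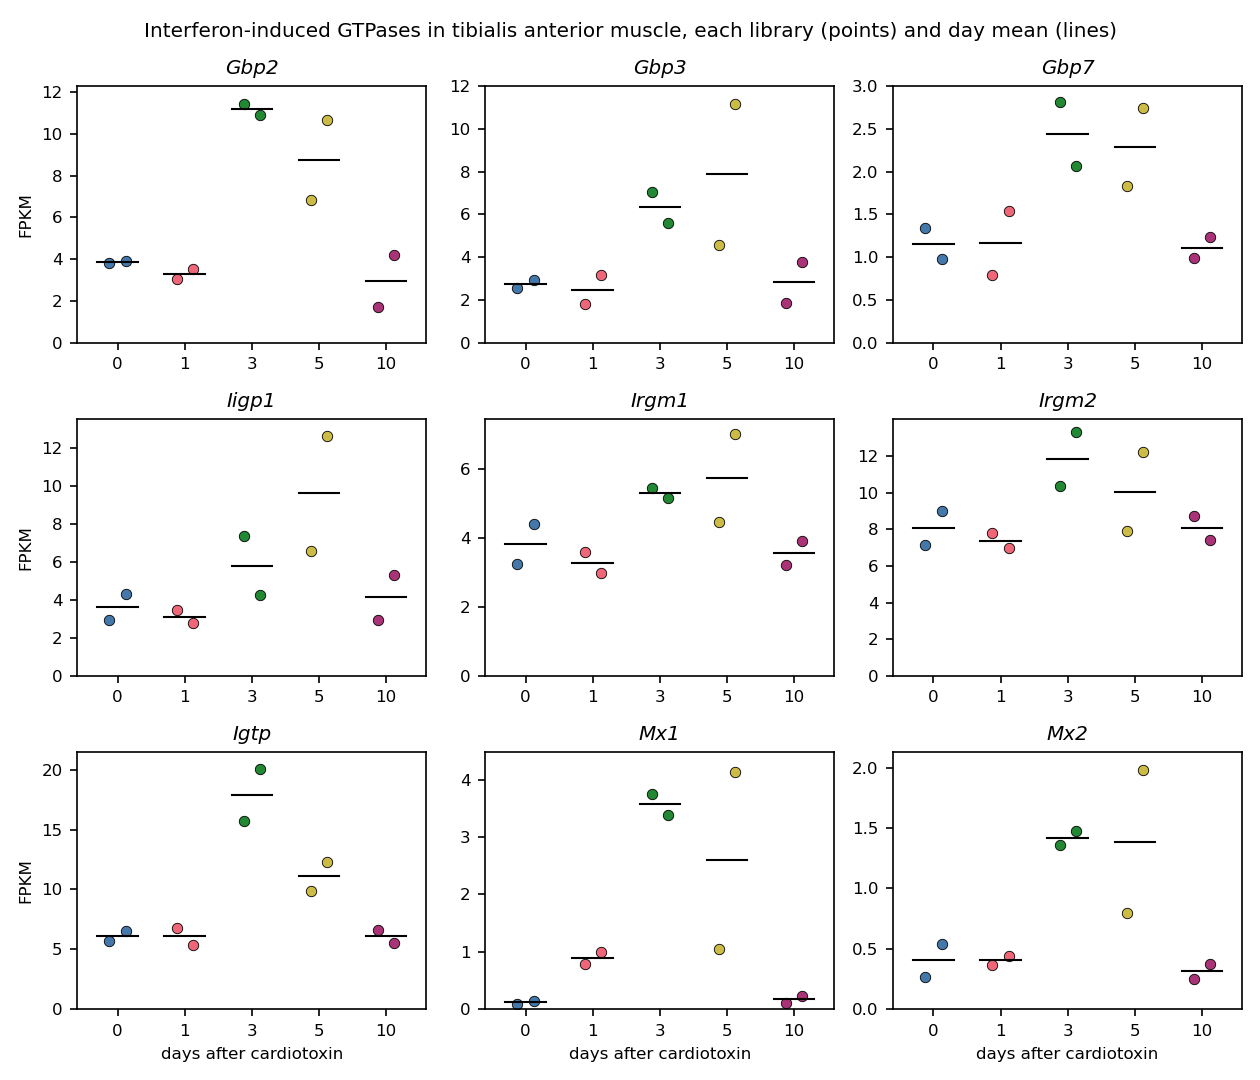
FPKM of each of the 9 genes in the 10 muscle libraries (points, 2 per day, replicate 1 left and replicate 2 right) with the mean of the day (line), against days after cardiotoxin, on linear axes from 0. Day 3 and day 5 hold the high values, and the day 5 libraries lie apart from each other for Gbp3 (4.57 and 11.2 FPKM), Iigp1 (6.61 and 12.6 FPKM) and Mx1 (1.04 and 4.14 FPKM).

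Against day 0, the median log2 difference of the 9 genes was −0.12 for day 1, 1.17 for day 3, 1.12 for day 5 and −0.04 for day 10, where the median of all tested genes lay between 0 and 0.01. On day 1, 1 gene (Mx1) was higher and 1 (Gbp2) was lower without overlap, where 25.5% and 26.9% of all genes were so placed. On day 3, 8 of 9 were higher without overlap (38.9% of all genes). On day 5, 8 of 9 were higher without overlap (34.6% of all genes). Day 10 had 0 of 9 without overlap in either direction (19.2% of all genes higher and 20.4% lower). From day 1 to day 3, 9 of 9 were higher without overlap (32.6% of all genes), with a median of 1.36, and from day 3 to day 10, 8 of 9 were lower (37.1% of all genes), with a median of −1.20. From day 3 to day 5 the median was −0.15 and 2 of 9, Gbp2 and Igtp, were lower without overlap (33.4% of all genes). These counts describe genes chosen with the courses known and were not tested.

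Day 5 replicate 2 stood apart from replicate 1. Averaged over the 9 genes, the log2 values centred on each gene's mean over the 10 libraries were 0.26 in day 5 replicate 1 and 1.15 in replicate 2, against 0.91 and 0.80 on day 3. The median difference of day 5 to day 0 was 0.72 without replicate 2 and 1.44 without replicate 1. Xist, the RNA of the inactive X chromosome in female cells, was at 5.77 to 10.0 FPKM on days 0 and 10 and in day 3 replicate 2, and at 0.152 FPKM or less in the other 5 libraries, although the methods name male mice. The groups of days 1 and 5 thus differ from day 0 in Xist as well as in time, and the 2 cannot be told apart there. On day 3, the library with Xist at 10.0 FPKM had Gbp2 at 10.9, Igtp at 20.1 and Mx1 at 3.39 FPKM, and the library with Xist at 0.0198 FPKM had them at 11.5, 15.7 and 3.75 FPKM.

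Markers of other cells moved with the injury course. The sum of 10 macrophage and monocyte markers was 49.2 and 99.7 FPKM on day 0, 330 and 399 FPKM by day 1, 1639 and 1603 FPKM by day 3, 469 and 536 FPKM on day 5, and 73.1 and 278 FPKM by day 10. Against day 0 the fit (limma) called 4 of 10 of these markers higher on day 1, 10 of 10 on day 3 and 8 of 10 on day 5. Of all tested genes it called 6% on day 1 in either direction, and 24.5% higher on day 3 and 12.9% on day 5. A sum of 9 T cell and NK cell markers was 0.807 to 2.25 FPKM on day 0 and 5.99 to 7.83 FPKM on day 3. The sum of 5 fibroadipogenic markers was 40.7 to 95.9 FPKM on day 0 and 401 to 440 FPKM on day 3. On day 5 it was 453 to 499 FPKM. Neutrophil sums were 1.58 to 5.19 FPKM on day 0, 10.1 to 19.2 FPKM on day 1 and 7.17 to 8.34 FPKM on day 3. Endothelial sums were 63.2 to 87.0 FPKM on day 0 and 41.5 to 51.9 FPKM on day 3. Fibre marker sums were 52430.3 to 59799.5 FPKM on day 0 and 14515.4 to 18174.3 FPKM on day 3. On day 5 they were 44163.8 to 45767.2 FPKM. In whole muscle, more cells of a type and more RNA per cell cannot be told apart. FPKM is relative to the size of the library, so a fall of abundant fibre RNA can also raise other values. The part of infiltrating or other cells and of the fibre RNA in the GTPase levels was not tested.

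**Figure D5:**
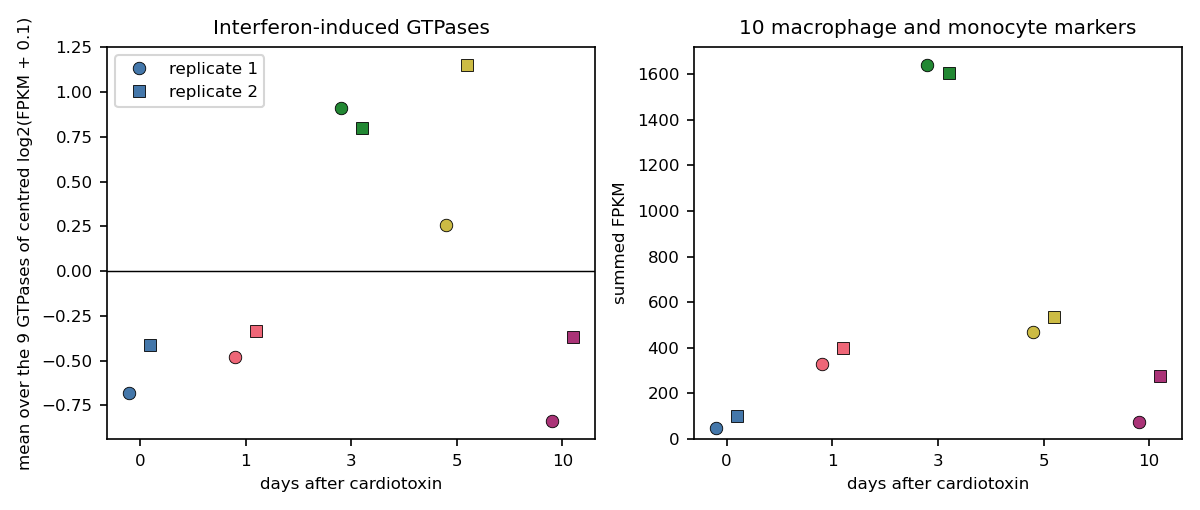
Left, the mean over the 9 GTPases of log2(FPKM + 0.1) centred on each gene's mean over the 10 muscle libraries; right, the summed FPKM of 10 macrophage and monocyte markers, by days after cardiotoxin, with circles for replicate 1 and squares for replicate 2. On day 3 the marker sums are 1639 and 1603 FPKM and the GTPase means 0.91 and 0.80, and on day 5 they are 469 and 536 FPKM and 0.26 and 1.15.

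Of the 22 other Gbp and Irg genes, 15 were tested in muscle. Compared with day 0, 0 passed on day 1 (limma, 3 at an unadjusted p under 0.05), 6 were called higher on day 3, 4 on day 5 and 0 passed on day 10 (0 at an unadjusted p under 0.05). The fit called 6% of all tested genes on day 1, 24.5% higher on day 3, 12.9% higher on day 5, and 0.00597% on day 10. On day 3 these were Gbp8, Gbp9 (0.84 ± 0.29, adjusted p = 0.0428), Ifi47 (2.23 ± 0.51, adjusted p = 0.00904), Gm12250 (3.60 ± 0.50, adjusted p = 0.00119), Gm5431 (3.15 ± 0.55, adjusted p = 0.00299) and Gm4951 (1.96 ± 0.63, adjusted p = 0.0345). Gbp8 measured 0.0466 and 0.131 FPKM on day 0 and 1.25 and 1.68 FPKM on day 3 and reached the filter only with the help of the day 3 libraries, so no test is given for it there, and in cells it was at or below 0.106 FPKM in each of the 8 libraries. Gbp8, Gm12250, Gm5431 and Gm4951 rose on day 5. Each of these genes reached the filter only with the help of libraries of days 3 and 5. A higher level on those days was thus a condition of their being tested, and their calls and p-values carry that limit. The day 5 count was 0 without day 0 replicate 1, without day 5 replicate 2 or with a term for Xist, 1 without day 5 replicate 1 and 2 without either day 3 library. The day 3 count was 3 without day 0 replicate 1.

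Of 36 tested interferon-induced effectors, 30 rose on day 3 and 18 on day 5, 0 passed on day 1 (5 at an unadjusted p under 0.05), and 0 passed on day 10 (0 at an unadjusted p under 0.05). The day 3 count was 13 without day 0 replicate 1 and 17 with a term for Xist, and the day 5 count was 0 in each of these fits. Oas3 (3.71 ± 0.54, adjusted p = 0.00138), Zbp1 (3.70 ± 0.54, adjusted p = 0.00143), Oas1a (2.82 ± 0.79, adjusted p = 0.0206), Ifi27l2a (2.73 ± 0.60, adjusted p = 0.00755) and Oasl2 (2.59 ± 0.64, adjusted p = 0.0121) had the largest changes on day 3. Of 23 tested receptor and signalling genes, 15 rose on day 3 (among them Irf8, Irf7, Ifnar2, Nlrc5, Il10rb, Stat2, Irf1, Usp18, Ifngr1, Ifnar1, Irf9, Socs1, Tyk2 and Irf5) and 3 fell (Jak2, Ifngr2 and Ptpn11), with 9 rising without day 0 replicate 1. On day 5, 7 rose (among them Nlrc5, Irf8, Ifnar2, Il10rb, Irf1 and Ifnar1) and 2 fell (Jak2 and Ifngr2), and without day 0 replicate 1 neither count was above 0. On day 1 the only calls of this list were Ifnar1 (0.77 ± 0.18, adjusted p = 0.0494) and Irf5 (0.72 ± 0.14, adjusted p = 0.0373), and without day 0 replicate 1 there were 0. Of 13 tested dynamin-superfamily GTPases without a known interferon response, 4 rose and 6 fell on day 3, with a median of −0.23. The 5 with the largest change were the mitochondrial fusion proteins Mfn1, Mfn2 and Opa1, which fell by 2.17, 2.03 and 1.41 on the log2 scale, Atl2, which fell by 1.70, and Ehd4, which rose by 1.38 (adjusted p of 0.000335 for Mfn2 to 0.0206 for Ehd4). Of 12 tested autophagy conjugation genes, 0 rose and 3 fell. On day 3, 9341 of all 16753 tested genes had an unadjusted p under 0.05 in either direction (limma). The share of all genes called lower is not reported here, so the falls counted here are not read as particular to these lists.

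The rank of levels among the 9 genes differed between the tables, which the authors scaled separately. Irgm1 had the highest mean FPKM, a measure per length, in each of the 4 groups of cells, while Irgm2 (days 0, 1 and 10) or Igtp (days 3 and 5) had it in muscle. Mx1 had the lowest mean in each group of cells and on days 0 and 10, and Mx2 had it on days 1, 3 and 5. In cells, Iigp1 and Igtp were closest to the mean course of the 9 genes over the 8 libraries (mean absolute difference of centred log2 values 0.16 and 0.19) and Mx2 and Gbp2 farthest (0.83 and 0.79). In muscle, Gbp3 and Mx2 were closest (0.20 and 0.21 over 10 libraries) and Mx1 farthest (1.01).

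By the same measure of likeness, the genes outside the set with the course most like the mean of the 9 GTPases were found among genes with a group mean of at least 1 FPKM. In cells, over 8 libraries and 12413 genes, these were Oas3 (0.21), Ighv1-5 (0.24), Nlrp4e (0.26), Gria3 (0.27), Phf11d (0.27), Sp100 (0.28), Tgtp1 (0.28), Irf9 (0.32), Rtp4 (0.33) and Gm7361 (0.34). In muscle, over 10 libraries and 14045 genes, they were Stat2 (0.11), Eif2ak2 (0.12), Adar (0.12), A930037H05Rik (0.13), Uba7 (0.13), Mndal (0.14), B3galnt1 (0.15), Tshz3 (0.15), Parp14 (0.15) and Rnf213 (0.15). The lists of interferon genes used above held 4 of the 10 in cells and 3 of the 10 in muscle, namely Oas3, Tgtp1, Irf9 and Rtp4 in cells and Stat2, Eif2ak2 and Parp14 in muscle. Those lists are a selection, so a gene outside them may still be interferon-induced, and the counts depend on what was listed.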

How the data were processed

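Per the study's methods, HISAT2 placed the reads on GRCm38, featureCounts assigned them to genes, and the authors deposited FPKM, taken from DESeq2 by its fpkm function, in 1 table for cells and 1 for muscle, scaled separately. Strand settings are not given in the sources used here. The deposited FPKM plus 0.1 were log2-transformed and fitted with limma 3.58.1 (lmFit, eBayes with trend, R 4.3.3) over all groups of a table, for genes that reached 0.5 FPKM in 2 or more libraries, and genes were called at a Benjamini-Hochberg adjusted p of at most 0.05. FPKM are not counts, so no count model was fitted. The 9 genes, the gene lists and the naming rules were chosen with earlier results of these data known. Named genes were the 9, every called gene of the Gbp, Irg, interferon and signalling lists (a signalling gene that is counted is not reported by name here), up to 5 called genes with the largest change of other lists, Mettl3 and Xist, and the 10 genes most like the 9. Irf7, Irgq, Dnm2, Ckm, Myod1, Mymk and Cd14 and some values beside calls were added after values were seen.

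Depth was read from steps between low values with exon lengths of GENCODE M21 (55227 of 55487 and 53360 of 53465 identifiers matched), and 97.3% to 99.05% of these values were whole reads within 0.05. On simulated data the fit called 113 of 200 genes changed by 2 on the log2 scale, with 8 unchanged genes called, in cells (GM), and 144 of 200, with 13, in muscle (day 1). In cells, same-numbered libraries deviated together (6 correlations of 0.278 to 0.680, all above 0.1), so the numbers pair them by this measure; the labels give no reason. Python 3.11.15, pandas 2.3.3, numpy 2.4.6 and matplotlib 3.10.9 were used for the rest. The alternatives were other pseudocounts, filters and scalings, a replicate block, a term for Xist, a fit of only the groups compared, a fold threshold of 2 on the log2 scale, and each library left out. Mettl3 overexpression libraries and GFP controls were not analysed here, nor were protein sequences.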

Additional observations from a re-analysis of the deposited data

Results flagged for a closer look

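Gbp2 was flagged because its knockdown libraries lay below the control libraries in GM and above them on DM3. The knockdown difference was 2.22 larger on DM3 than in GM on the log2 scale (−0.51 ± 0.26 in GM and 1.71 ± 0.26 on DM3, SE of the fit, 2 libraries per group). Leaving out 1 library, the GM value ran from −0.84 without control GM replicate 1 to −0.19 without control GM replicate 2. The difference between the stages was not tested.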

How the results depend on the processing

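With 2 libraries per group, calls moved with the settings. Small differences could change sign, as did the Irgm1 difference in GM and the medians of the 9 genes on days 1 and 10. For the 9 genes, the median knockdown difference on DM3 was 2.45 with 1 FPKM added and 3.69 with 0.01 FPKM added, and the number that changed from GM to DM3 in knockdown cells was 3 with 1 FPKM added. For the other Gbp and Irg genes, the DM3 count was 7 and 1 with these additions, 0 without a filter, 5 with the replicate block, and 10 with only the groups compared. In muscle, the median of the 9 on day 3 was 0.79 with 1 FPKM added and 1.00 with a term for Xist, and on day 1 −0.28 with that term. The other Gbp and Irg genes numbered 3 on day 3 and 0 on day 5 without a filter, and 0 on day 5 with the term for Xist. Leaving out each library in turn gave medians of 0.32 to 1.61 in GM, 3.16 to 3.59 on DM3, −0.28 to 0.042 on day 1, 1.00 to 1.33 on day 3, 0.72 to 1.44 on day 5 and −0.23 to 0.12 on day 10. The counts of other Gbp and Irg genes called higher were 0 to 0 in GM, 0 to 7 on DM3, 0 to 0 on day 1, 3 to 6 on day 3, 0 to 4 on day 5 and 0 to 0 on day 10, and those of the 9 genes from GM to DM3 were 0 to 1 in control and 0 to 4 in knockdown cells. Over all genes, the DM3 knockdown contrast called 274, but 97 without a filter, 453 with 1 FPKM added, 505 with the replicate block, 2828 with only the groups compared, and 0 to 887 with each library left out. The causes were not tested. In muscle, same-numbered libraries did not deviate together (10 correlations of −0.0187 to 0.211), and a block on the number moved the day 5 count of other Gbp and Irg genes from 4 to 5. Depth limits Mx1 and Mx2 in control cells, where values were 0 or a single read.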
